A study of Mus musculus with 8 samples.

Results

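H19, Igf2, Igf2r, Meg3, Rian, Peg3, Peg10, Cdkn1c, Kcnq1ot1 and Grb10 are 10 imprinted genes, described here in undifferentiated spermatogonia, a population of the testis to which the germline stem cells belong. They were taken by name from a table of 14853 genes, each given as 1 row keyed by an Entrez gene ID, and all 10 were found. The names were chosen by the adjusted p and log2 fold changes of this same table, in which H19 and Igf2 had passed the test, so every value below is a description and not a test of the set. For 4 of them the symbol was blank and was read from the gene ID. The table compares 4 samples of genotype Tert CreER/flox with 4 samples of genotype Tert CreER/+. In CreER/flox mice one Tert allele carries the tamoxifen-activated Cre recombinase CreER and the other is flanked by loxP sites, so that Cre can delete it. CreER/+ mice carry CreER opposite an unmodified Tert allele. Animals of both groups were C57BL/6, 8 to 12 weeks old, and carried the Cre-dependent reporter Rosa lsl-tdTomato on one allele. Both were injected with tamoxifen, and on day 7 the tdTomato-positive cells with a high MCAM and no KIT signal were collected by sorting for sequencing of total RNA. Sample titles call the CreER/flox samples TERT-del and the CreER/+ samples TERT-hetero. CreER is expressed from Tert and tdTomato appears after Cre has acted. The sort of both groups therefore took cells that expressed Tert at the time of tamoxifen, or descendants of such cells. The CreER/+ cells also carry CreER on 1 Tert allele.

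Genomic imprinting is the expression of a gene from only the maternal or only the paternal chromosome. It depends on DNA methylation placed at control regions in the egg or in the sperm lineage. In mouse body cells H19, Igf2r, Meg3, Rian, Cdkn1c and, in most tissues, Grb10 are expressed from the maternal allele, whereas Igf2, Peg3, Peg10 and Kcnq1ot1 are expressed from the paternal allele. The male germline erases inherited methylation before birth and then sets the paternal pattern on both chromosomes. H19 and Igf2 share enhancers and a control region that binds the insulator protein CTCF, and in body cells the allele that makes H19 does not make Igf2.

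The change in level is given throughout as the log2 fold change of CreER/flox over CreER/+ with its standard error (SE), as the authors fitted it. Values per library were not used here, so no level can be given for either group alone, and the value of each gene is its mean normalized count over all 8 libraries. The sign was read from the name of the table, which puts flox against WT, although no group is labelled wild type. Tert had 98.0 mean normalized counts and a log2 fold change of 0.29 (SE 0.26) in the authors' deposited table. The sources used here do not give the deleted part of Tert, so this row checks neither the sign nor the labels.

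The called genes H19 and Igf2 each hold a microRNA gene, whose products are shown because they lie within the transcripts that were higher. Mir675 lies within H19 and Mir483 within Igf2, both on the minus strand of chromosome 7. The mature sequences are those of RefSeq on GRCm38.p6, written 5′ to 3′, with the seed (bases 2 to 8) in capitals.
mmu-miR-675-5p, chr7:142577112-142577133: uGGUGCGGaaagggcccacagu
mmu-miR-675-3p, chr7:142577078-142577099: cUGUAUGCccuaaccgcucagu
mmu-miR-483-5p, chr7:142654968-142654989: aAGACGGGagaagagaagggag
mmu-miR-483-3p, chr7:142654932-142654952: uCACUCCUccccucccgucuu
The 4 seeds differ from one another. Mir675 had a row of its own in the authors' deposited table, with a mean count of 91.8 and a log2 fold change of 0.31 (SE 0.22), which did not pass the test. No row for Mir483 was used here.

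Promoter windows of 300 bases, running from 250 bases before to 50 bases after an annotated start, were found in RefSeq for 7 of the 10 genes, 12 windows in all. CpG dinucleotides, the sites of DNA methylation, are in capitals in the windows below. Igf2 has 4 windows, numbered here from the most upstream start. Windows 2 and 3, the Igf2 windows with the most CpG, are shown, as is that of Kcnq1ot1, which starts inside the control region of the neighbouring imprinted domain. All are on the minus strand of chromosome 7 in GRCm38.p6.
Igf2 window 2, chr7:142661222-142661521: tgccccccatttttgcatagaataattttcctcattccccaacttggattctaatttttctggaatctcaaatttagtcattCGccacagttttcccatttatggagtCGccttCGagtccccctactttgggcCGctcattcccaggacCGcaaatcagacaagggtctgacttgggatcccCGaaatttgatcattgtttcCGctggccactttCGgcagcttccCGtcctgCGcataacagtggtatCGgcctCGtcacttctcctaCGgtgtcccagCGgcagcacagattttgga
Igf2 window 3, chr7:142658755-142659054: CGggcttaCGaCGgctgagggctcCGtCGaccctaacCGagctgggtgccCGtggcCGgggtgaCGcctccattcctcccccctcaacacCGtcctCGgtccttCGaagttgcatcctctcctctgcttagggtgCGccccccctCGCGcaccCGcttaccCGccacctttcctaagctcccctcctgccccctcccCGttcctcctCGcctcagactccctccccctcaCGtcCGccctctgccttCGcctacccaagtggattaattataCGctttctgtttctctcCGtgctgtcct
Kcnq1ot1 window, chr7:143296498-143296797: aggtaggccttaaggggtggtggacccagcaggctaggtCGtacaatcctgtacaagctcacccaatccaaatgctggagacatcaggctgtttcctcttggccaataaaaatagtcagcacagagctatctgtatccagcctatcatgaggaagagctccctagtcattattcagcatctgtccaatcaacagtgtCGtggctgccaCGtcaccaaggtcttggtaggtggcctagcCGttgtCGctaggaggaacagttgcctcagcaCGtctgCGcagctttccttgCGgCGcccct
The Igf2 windows 1 to 4 hold 2, 14, 24 and 7 CpG, against a median of 7 over 32851 windows of all genes, so that 1 of the 4 lies below that median and 1 at it. The Kcnq1ot1 window holds 9. Among all member windows the count ran up to 45 in a Grb10 window and 34 in the Igf2r window, and down to 0 in the Rian window. The hexamer TGCCGC, bound by the imprint-protecting factor ZFP57 when methylated, was searched on both strands. It occurred in 3 of the 12 windows, those of window 2 of Igf2, of 1 Grb10 start and of 1 Meg3 start, against 11.6% of all windows. GCCATNTT, a YY1 motif, occurred in 0 of the 12 (6.05% of all windows) and CACGTG, the E-box, in 1 of the 12, that of Igf2r (7.15%). These matches describe the letters of the windows only.

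H19 and Igf2 were both higher in CreER/flox than in CreER/+ spermatogonia, by similar factors. H19 is a spliced non-coding RNA that limits growth in the mouse embryo. It is Entrez gene 14955 and lies on chromosome 7 at 142575530 to 142578146 (GRCm38). In the authors' deposited table its log2 fold change was 0.53 (SE 0.07), which is 1.45-fold, with a 95% interval of 1.31-fold to 1.60-fold. Igf2 encodes insulin-like growth factor 2, a fetal growth factor, and lies 72.6 kb away at 142650768 to 142666816 (Entrez gene 16002). Its log2 fold change in the authors' deposited table was 0.49 (SE 0.11), which is 1.41-fold, with a 95% interval of 1.22-fold to 1.63-fold. The interval of H19 lies within that of Igf2. Their mean counts over all libraries in the authors' deposited table were 1899 for H19 and 1015 for Igf2.

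A gene was called when its deposited adjusted p was under 0.05. In the authors' deposited table, H19 (adjusted p 2.21e-09) and Igf2 (adjusted p 0.00104) were the 2 of the 10 genes that were called, both higher, where 5.36% of all genes were called, 1.94% higher and 3.42% lower. These values chose the genes, so nothing is read from the comparison with all genes. The call of Igf2 ended when the statistics of all genes, whose central part was 1.45 times as wide as a standard normal distribution, were divided by that width (adjusted p 0.350), while H19 was still called (adjusted p 0.00305). Both calls ended when the statistics were read against a t distribution with 6 degrees of freedom (adjusted p 0.439 for each), as did the calls of all other genes. Nothing in the labels says that the samples came from separate animals, so these p-values may measure technical spread.

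**Figure D1:**
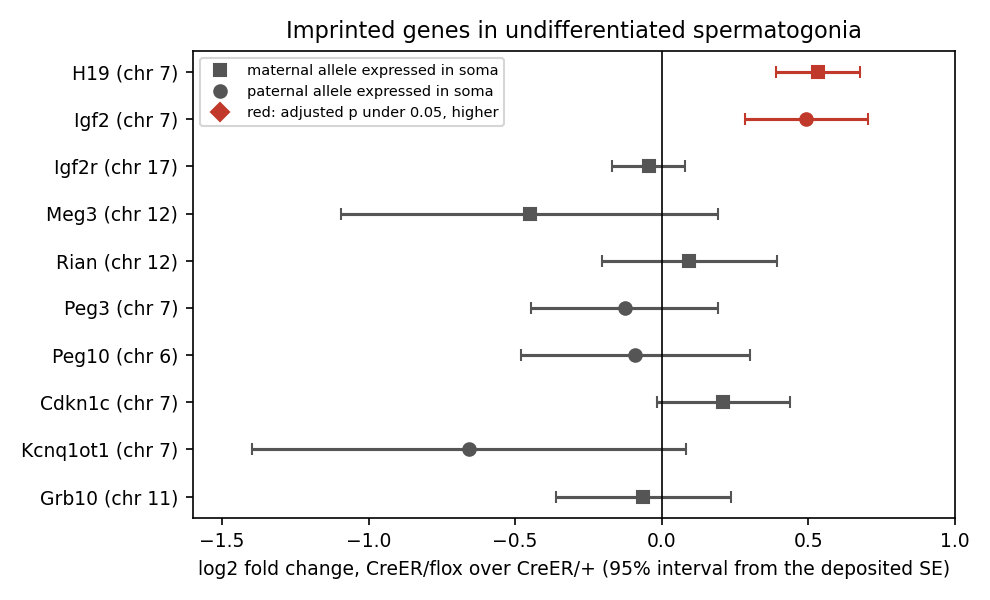
Log2 fold change of CreER/flox over CreER/+ for the 10 imprinted genes, with 95% intervals from the deposited SE (4 samples a group). Squares are genes expressed from the maternal allele in body cells, circles those expressed from the paternal allele, and red marks the genes called higher. H19 at 0.53 and Igf2 at 0.49 are the only genes of the 10 whose interval lies wholly above 0, and Kcnq1ot1 has the widest interval.

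Neighbouring genes were examined next. Within 1 Mb of either gene, 24 other measured genes were found beside the 10. By the authors' DESeq2 test 0 of the 24 were called, and 3 had an unadjusted p under 0.05, where 5.36% of all genes were called and 19.7% had such a p. With 24 genes, a count of 0 is near that share. Their median log2 fold change in the authors' deposited table was 0.030. Closest were Mir675, inside H19, and the antisense transcript Igf2os, which overlaps Igf2 and stood at 0.25 (SE 0.34) in the authors' deposited table. Igf2os runs antisense to Igf2, and without the strand setting of the counting their reads cannot be told apart. On the far side of H19 from Igf2, the mitochondrial ribosomal protein gene Mrpl23 stood at 0.12 (SE 0.13) in the authors' deposited table. The imprinted genes Ascl2, a transcription factor gene of the placenta, and Cd81, a tetraspanin gene, had log2 fold changes of 0.35 (SE 0.28) for Ascl2 and 0.21 (SE 0.13) for Cd81, per the authors' deposited table, and were not called. The smallest adjusted p of the 24 in the authors' deposited table was 0.137, that of Tnfrsf22, a decoy receptor gene, at 0.94 (SE 0.39).

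**Figure D2:**
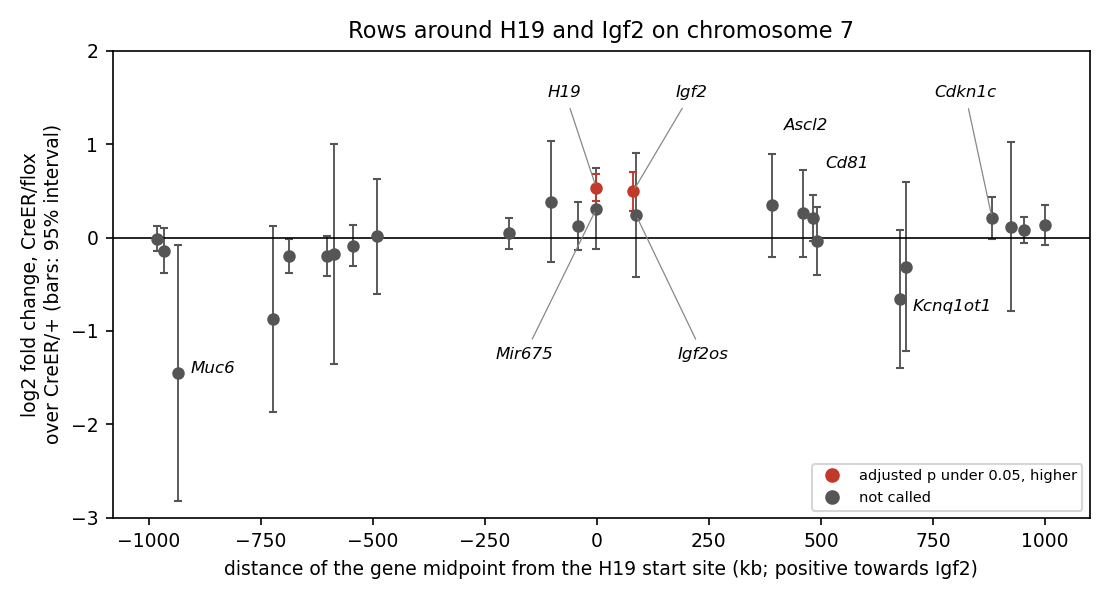
Log2 fold change of CreER/flox over CreER/+ (vertical axis, bars are 95% intervals) of all measured genes within 1 Mb of H19, against distance of the gene midpoint from the H19 start in kb. H19 and Igf2, in red, are the only called genes in the window, and Kcnq1ot1 lies below 0 with an interval that spans 0.

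Cdkn1c and Kcnq1ot1 lie on the same stretch of chromosome 7, in a separate imprinted domain. Cdkn1c encodes p57, a cyclin-dependent kinase inhibitor that restrains the cell cycle, and lies 880.2 kb from H19 at 143458339 to 143461059. It had 448 mean counts in the authors' deposited table and a log2 fold change of 0.21 (SE 0.12, 95% interval -0.02 to 0.44), and was not called. Kcnq1ot1 is a long unspliced non-coding RNA at 143213111 to 143296547 that silences Cdkn1c and its neighbours in cis in body cells. It had 1156 mean counts in the authors' deposited table and a log2 fold change of -0.66 (SE 0.38, 95% interval -1.40 to 0.08), and was not called either. Although the point estimates of Cdkn1c and Kcnq1ot1 have opposite signs, neither interval leaves out 0. Phlda2, a placental growth regulator of the same domain, stood at 0.11 (SE 0.46) in the authors' deposited table, and Nap1l4, a histone chaperone gene at its edge, at 0.08 (SE 0.07).

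Kcnq1ot1 was measured less precisely than most genes of its abundance. Its SE was 4.43 times the median SE of the 300 genes closest to it in mean count, a ratio reached by 44 of the 14853 genes. The SE is derived from the spread between libraries, and which libraries differed could not be seen without values per library. Kcnq1ot1 lies within Kcnq1 on the opposite strand, and the sources used here do not name the strand setting of the counting. Reads of an unspliced Kcnq1 transcript and of Kcnq1ot1 may therefore be mixed in 1 row. Kcnq1, a potassium channel gene, had a row of its own in the authors' deposited table at -0.31 (SE 0.46, mean count 23.2). For the other 9 genes the same ratio lay between 0.837 and 1.34, with Igf2r at the low end and Meg3 at the high end. For H19 and Igf2 the ratios were 0.975 and 1.20. High ratios were not confined to Kcnq1ot1. Among the 11 spermatid markers given below, all with log2 fold changes below 0, the ratio ran from 1.12 to 5.37. The low end was Acrv1 (mean count 21.8) and the high end Prm1 (mean count 1260). Akap4 and Tnp2, at mean counts of 856 and 1048, had ratios of 4.28 and 4.17. The cause of the wide SE of Kcnq1ot1 was not tested.

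**Figure D3:**
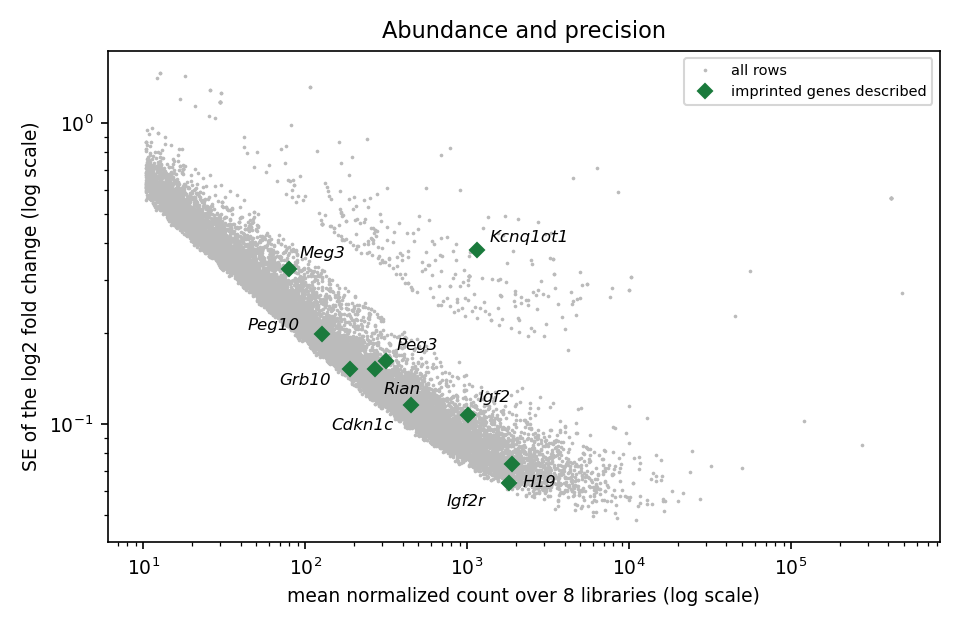
SE of the log2 fold change against mean normalized count over 8 libraries, both on log scales, for all genes (grey) and the 10 imprinted genes (green). Kcnq1ot1, at a mean count of 1156 and an SE of 0.38, lies above the main band, and the other 9 lie in or at the edge of it.

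Igf2r and Grb10, the receptor and the adaptor of the growth factor pathway among the 10 genes, were not called. Igf2r, on chromosome 17 (12682406 to 12769706), encodes the receptor that takes up IGF2 and carries it to lysosomes for breakdown. It was the most precisely measured of the 10, with a log2 fold change of -0.04 (SE 0.06) at a mean count of 1827 in the authors' deposited table. Its 95% interval of -0.17 to 0.08 does not overlap that of H19 (0.39 to 0.68) or of Igf2 (0.28 to 0.70). H19 and Igf2 were picked by these same values, so nothing is read from that contrast. Igf2r was not tested against either gene. Grb10, on chromosome 11 (11930499 to 12037428), encodes an adaptor that dampens insulin and IGF receptor signalling. Its log2 fold change in the authors' deposited table was -0.06 (SE 0.15) at a mean count of 189. Its 95% interval was -0.36 to 0.24, and its sign turned, to 0.0076, once a trend of fold change with length, GC and abundance was taken out.

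The non-coding RNAs Meg3 and Rian lie 32.2 kb apart on chromosome 12 (109540996 to 109571729 and 109603945 to 109661716), in a domain whose control region, like that of H19, is methylated in sperm. Meg3 stood at -0.45 (SE 0.33, 95% interval -1.09 to 0.19) in the authors' deposited table and was the least abundant of the 10 with a mean count of 80.0. Rian, the host of a tandem array of box C/D small nucleolar RNAs, stood at 0.09 (SE 0.15, 95% interval -0.20 to 0.39) with a mean count of 270.4 in the authors' deposited table. GENCODE annotates 13 small nucleolar RNAs and 4 microRNAs within Rian, so its row may hold their reads. AF357359, which RefSeq places within Rian, had its own row in the authors' deposited table at 0.91 (SE 0.41, adjusted p 0.177). Of the protein-coding genes of the domain, Dlk1, which encodes a membrane protein related to Notch ligands, stood at 0.11 (SE 0.19), and Rtl1, derived from a retrotransposon, at -0.10 (SE 0.50), both in the authors' deposited table. The deiodinase gene Dio3, at its far end, stood at -0.42 (SE 0.48) in the authors' deposited table. None of these 6 rows was called.

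Peg3 and Peg10, the remaining paternally expressed genes, were close to 0. Peg3 encodes a zinc finger protein and lies at the start of chromosome 7 (6703892 to 6730462), far from the H19 domain. It stood at -0.13 (SE 0.16, 95% interval -0.44 to 0.19) with a mean count of 315 in the authors' deposited table. Peg10, on chromosome 6 (4747306 to 4760517), derives from a retrotransposon and is needed for the placenta. It stood at -0.09 (SE 0.20, 95% interval -0.48 to 0.30) at 128 mean counts, per the authors' deposited table, and at 0.027 once that trend was taken out. Within 1 Mb of Peg3 and of Peg10 lay 21 and 4 other measured genes, of which 0 were called by the authors' DESeq2 test. Around all 10 genes, 94 neighbours were measured, with 17 at an unadjusted p under 0.05 and 2 called, both lower, against 19.7% and 5.36% over all genes. Smok4a, a testis kinase gene near Igf2r, fell by 2.99 on the log2 scale (SE 0.72, mean count 17.0), and Dync1h1, the dynein heavy chain gene near Rian, fell by 0.26 (SE 0.07), in the authors' deposited table.

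The 10 genes spanned a wide range of levels when the mean count was divided by the length of the longest GENCODE transcript. H19 was highest at 831 normalized counts per kb, above 95.9% of all genes, followed by Cdkn1c at 236, Igf2 at 215 and Igf2r at 206. The middle group was Grb10 at 37.4, Peg3 at 36.2 and Rian at 33.4 counts per kb, below the median of 65.7 over all genes. Peg10 at 19.2, Kcnq1ot1 at 12.4 and Meg3 at 5.50 counts per kb were lowest. These levels carry no spread over samples, so neighbours in the order cannot be told apart by it. H19 exceeded Igf2 by 3.86 times per kb. The order depends on the transcript used: with the median transcript length of each gene, Igf2r was highest at 2275 counts per kb, above H19 at 1612 and Igf2 at 1059. By that length Meg3 was not lowest, at 100 counts per kb against 78.1 for Peg3, 19.2 for Peg10 and 12.4 for Kcnq1ot1. Rian then stood at 303. The 6 maternally expressed genes had a median log2 fold change of 0.025 and the 4 paternally expressed ones of -0.11, each holding 1 of the called genes, H19 and Igf2.

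Other imprinted genes were examined to place these values. Of 67 listed beside the 10, 46 were in the authors' deposited table. By the authors' DESeq2 test 0 of the 46 were called, and 3 had an unadjusted p under 0.05. Over all genes these shares were 5.36% and 19.7%. The median log2 fold change of the 46 was -0.020, against 0.00071 over all genes, with 22 above 0 and 24 below. Trappc9, a trafficking gene, had the lowest adjusted p of the 46 in the authors' deposited table, at -0.41 (SE 0.14, adjusted p 0.0561), and Smoc1, which encodes a matrix protein, came next at 0.37 (SE 0.15, adjusted p 0.134). Counting the 10 genes, 25 maternally expressed genes had a median of 0.045 and 31 paternally expressed genes a median of -0.030. Neither class as listed here lay to one side of 0.

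**Figure D4:**
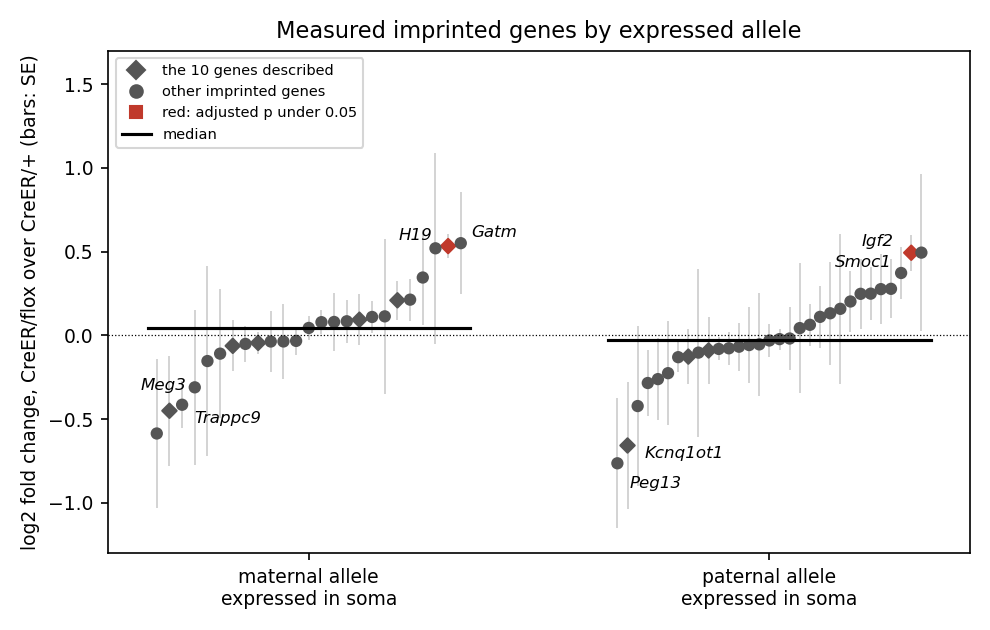
Log2 fold change of CreER/flox over CreER/+ with its SE for 25 measured genes expressed from the maternal allele and 31 from the paternal allele, ordered by value within each class. Diamonds are the 10 genes described, black lines are class medians at 0.045 and -0.030, and H19 and Igf2 in red are the only called genes.

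IGF2 acts through the IGF1 receptor and the insulin receptor, and binding proteins hold it outside the cell. Of 43 listed genes of this pathway, 34 were measured, 1 was called higher and 1 lower, and the median log2 fold change was -0.009. These 2 of 34 are near the 5.36% called over all genes. The called genes in the authors' deposited table were Igfbp2, which encodes an IGF binding protein, at 0.38 (SE 0.10, adjusted p 0.00758), and Mtor, which encodes a growth-controlling kinase, at -0.20 (SE 0.06, adjusted p 0.0214). Mtor was no longer called once the trend with length, GC and abundance was taken out. Igf1r, the main receptor gene, was abundant, with a mean count of 5044, and stood at -0.15 (SE 0.06, adjusted p 0.128), per the authors' deposited table. Igf2bp1, whose product binds Igf2 mRNA, stood at 0.05 (SE 0.07) at a mean count of 3462 in the authors' deposited table. The genes of the ligands Igf1, Ins1 and Ins2 were not among the measured genes.

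Genes that set or keep imprints were also examined. Of 33 listed, 31 were measured, with a median log2 fold change of 0.011, 1 called higher and 1 lower, again near the 5.36% of all genes. The called genes in the authors' deposited table were Hells, which encodes a chromatin remodeller needed for DNA methylation, at 0.27 (SE 0.07, adjusted p 0.00980), and Ehmt2, which encodes the histone methyltransferase G9a, at -0.23 (SE 0.06, adjusted p 0.010). Hells was no longer called once the same trend was taken out. Ctcf stood at 0.04 (SE 0.11) and its testis paralogue Ctcfl at -0.02 (SE 0.18) in the authors' deposited table. The maintenance methyltransferase gene Dnmt1 stood at 0.03 (SE 0.06) at a mean count of 4636 in the authors' deposited table.

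In bulk RNA, fewer cells of a type and less RNA per cell cannot be told apart, so markers of the cells a sort could hold are given beside these results. All 16 listed markers of undifferentiated spermatogonia were measured, and 0 were called by the authors' DESeq2 test (3 at an unadjusted p under 0.05). Over all genes these shares were 5.36% and 19.7%. With 16 genes, a count of 0 is near that share. The median log2 fold change of the 16 was -0.053, with 6 above 0 and 10 below, and mean counts ran up to 5143 for Zbtb16. The 3 in the authors' deposited table were Ret, Zbtb16 and Pax7. Ret stood at -0.23 (SE 0.08, adjusted p 0.0798) and Zbtb16 at -0.18 (SE 0.07, adjusted p 0.0875). Pax7 went the other way, at 0.73 (SE 0.36, adjusted p 0.221). All 11 spermatid markers were below 0, with a median of -1.14 and 6 called lower, where 3.42% of all genes were called lower. Sertoli cell markers were measured for 7 of 13, with a median of 0.061. One of them, Trf, which encodes transferrin, was called higher at 0.62 (SE 0.15, mean count 316) in the authors' deposited table, and the other 6 had mean counts of 10.9 to 33.6. Those 6 were Sox9, Wt1, Gata4, Rhox5, Amhr2 and Clu. The listed Sertoli genes Amh, Cldn11, Dhh, Fshr, Gata1 and Inha were not among the measured genes. Of 8 Leydig cell markers only Star was measured (-0.47, SE 0.33) in the authors' deposited table, and the steroid enzyme genes Cyp11a1, Cyp17a1 and Hsd3b1 were not among the measured genes. Myoid markers were measured for 3 of 7, with a median of -1.05. Actg2 was called lower at -1.17 (SE 0.37, mean count 89.0) in the authors' deposited table. Tagln at -1.05 (SE 0.62, mean count 13.1) and Myh11 at -0.10 (SE 0.58, mean count 19.5) were not called. Endothelial markers were measured for 7 of 8 with a median of 0.0048, and leukocyte markers for 2 of 8 with a median of 0.38. Erythroid markers were measured for 5 of 6 with a median of 0.93. That median is the value of Hba-a1 and Hba-a2, whose rows are identical (SE 1.32). Hbb-bt stood at 1.07 (SE 1.28), Hbb-bs at 0.87 (SE 1.26) and Alas2 at -0.25 (SE 0.35) in the authors' deposited table. Each of these 5 erythroid values was smaller in size than its SE. Markers of differentiating spermatogonia were measured for 5 of 5 with a median of -0.086. Of the endothelial, leukocyte, erythroid and differentiating markers, 0 were called by the authors' DESeq2 test. The only 3 with an unadjusted p under 0.05 in that test were among the 5 differentiating markers, against 19.7% of all genes. They were Dmrtb1 at -0.91 (SE 0.37), Sohlh2 at 0.23 (SE 0.10) and Stra8 at 0.30 (SE 0.15). Kit at -0.29 (SE 0.21) and Sohlh1 at -0.09 (SE 0.10) were the remaining differentiating markers. The part of other cells in the H19 and Igf2 values was not tested, and summed marker levels for each group could not be given without values per library.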

How the data were processed

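Total RNA was sequenced from 4 Tert CreER/flox and 4 Tert CreER/+ samples. Per the labels' protocols, library preparation used a stranded kit for small amounts of total RNA. Builds mm10 and GRCm38, the test package DESeq2, the aligners TopHat2 2.0.4 and Bowtie2 2.0.0-6, Bowtie, and the trimmer Trim Galore are listed in the submitters' processing notes. The sources used here do not say how reads were counted. The single table analysed here was deposited by the authors. It holds each gene's normalized count signal as a mean of the 8 libraries, a log2 fold change with its SE, the Wald score, and p-values, raw and adjusted, all made by the authors. The score differed from log2 fold change over SE by at most 2.58e-07. Every mean count was above 10, and the median was 192. Library totals were not used here, so depth is known only through mean counts and SEs, and a table of counts named in the labels was not analysed here.

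No model was fitted to libraries. Intervals are the log2 fold change ± 1.96 SE. Gene IDs were matched to RefSeq on GRCm38.p6 (14828 of 14853 rows) for symbols and coordinates, and transcript lengths came from GENCODE M21 (99.1% of rows). Multiple testing used Benjamini-Hochberg adjustment. Alternatives were other thresholds, other sets of genes for the adjustment, other reference distributions, centring, and removal of a trend with length, GC content and mean count. Steps were tested on simulated data. Computation used scipy 1.17.1, numpy 2.4.6 and pandas 2.3.3 under Python 3.11.15, and figures matplotlib 3.10.9.

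The 10 genes and all lists, including the imprinted, IGF, imprinting and cell marker lists, were chosen with earlier results of these data known. Named were the 10 genes, genes of their imprinted domains, and in each list up to 4 called genes of smallest adjusted p, or up to 2 of smallest p where none was called. Further genes named from lists were chosen for their role in the pathway after their values were seen.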

Additional observations from a re-analysis of the deposited data

How the results depend on the processing

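H19 and Igf2 were the called genes of the 10 under adjusted p thresholds of 0.1 and 0.01, adjustment over genes of mean count 100 or more, counting identical rows once, centring and trend removal. Under a t distribution with 6 degrees of freedom 0 of the 10, 0 pathway genes of IGF signalling, 0 genes that set or keep imprints and 0 neighbours were called, and with the null width estimated from the data these counts were 1, 0, 0 and 0. Over the 8 alternatives the adjusted p ran from 1.40e-09 to 0.439 for H19 and from 0.000768 to 0.439 for Igf2, and the log2 fold change from 0.47 to 0.53 for H19 and from 0.49 to 0.49 for Igf2. The counts of 2 IGF genes and 2 imprinting genes became 1 and 1 at a threshold of 0.01, where Mtor and Ehmt2 were lost, and 1 and 1 with the trend removed, where Mtor and Hells were lost. The count of 2 neighbours became 4 at a threshold of 0.1, 1 (Dync1h1) among genes of mean count 100 or more, where Smok4a was not tested, and 1 (Smok4a) with the trend removed. The other imprinted genes gave 0 calls under all 8 alternatives except the threshold of 0.1, which gave 1, Trappc9. With the trend removed the signs of Peg10 (0.027) and Grb10 (0.0076) reversed, and the cause was not tested. No other gene of the 10 changed sign under any alternative. Calls changed only for H19, under the t distribution, and for Igf2, under the t distribution and the estimated null width. No paired analysis was possible because values per library were not used here, and for the same reason no library could be left out. The length per gene, chosen after seeing the data, changed the counts per kb of all of the 10 genes except Kcnq1ot1, and that of Peg10 only from 19.16 to 19.17. What depth limits could not be separated from other spread without values per library.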

Other observations

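More of the 46 other imprinted genes are given here. By the authors' DESeq2 test 0 of the 46 were called, where 5.36% of all genes were called. In the domain on chromosome 7 that in humans underlies the Prader-Willi and Angelman syndromes, Snrpn, which encodes a splicing protein, stood at 0.28 (SE 0.21) in the authors' deposited table, and Ndn, which encodes the growth suppressor necdin, at 0.20 (SE 0.18). The ubiquitin ligase gene Ube3a of the same domain stood at -0.03 (SE 0.08) and its antisense host RNA Snhg14 at -0.02 (SE 0.19) in the authors' deposited table. Beside Peg3, the deubiquitinase gene Usp29 stood at -0.23 (SE 0.31) and the zinc finger gene Zim1 at 0.52 (SE 0.57, mean count 12.6) in the authors' deposited table. Mest, a hydrolase-like gene expressed from the paternal allele, stood at 0.25 (SE 0.16) in the authors' deposited table.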
